A study of Mus musculus with 3 samples.

Results

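Matrix metalloproteinases are zinc-dependent enzymes that cut the proteins of the extracellular matrix, and tissue inhibitors of metalloproteinases (TIMPs) block them. Of the 32285 genes counted in the single-cell data, 10 are described here: the metalloproteinases Mmp2, Mmp3, Mmp8, Mmp9, Mmp12, Mmp13, Mmp14 and Mmp19 and the inhibitors Timp1 and Timp2. They were chosen by name and not by a measured value, though with earlier results of these data known. For each gene, unique molecular identifiers (UMIs, 1 per captured transcript) were summed over a whole library, or over the cells of 1 class in it, and set against the UMIs of all genes as UMIs in 1000000 (CPM).

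The cells came from the dorsal skin of 8-week-old C57Bl/6 male mice in telogen, the resting phase of the hair cycle, after magnetic beads against CD45, a surface protein of immune cells, had been used to enrich immune cells. In WT_Ctrl, wild-type skin was not irradiated. In WT_UV, wild-type skin was exposed to ultraviolet B light (UVB) 3 times. In RP_UV, skin of Rosa26-rtTA; Tre-Ptgs2 mice received the same 3 exposures. In these mice doxycycline switches on a rat copy of Ptgs2, which encodes Cox-2, the inducible enzyme of prostaglandin synthesis, throughout the body rather than in 1 cell type. RP_UV came from 1 male mouse, collected at the same time point as WT_UV, and each wild-type group had an n of 1. Whether the wild-type mice also received doxycycline is not given in the sources used here.

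Metalloproteinases are made as inactive precursors and are grouped by what they cut: collagenases open intact fibrillar collagen, gelatinases cut denatured and basement membrane collagen, stromelysins and elastases cut a wider range of matrix proteins, and membrane-anchored members act at the cell surface. TIMPs bind the active site of the enzymes, and Timp2 also takes part in the activation of Mmp2 by Mmp14. In skin, fibroblasts, keratinocytes and myeloid cells all make members of the family, and ultraviolet light is known to raise several of them.

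Of the members, 4 lie together on mouse chromosome 9, while Timp1 lies on the X chromosome and the others on chromosomes 2 (Mmp9), 8 (Mmp2), 10 (Mmp19), 11 (Timp2) and 14 (Mmp14). In GRCm38.p6, Mmp13, Mmp12, Mmp3 and Mmp8 stand in this order among 7 protein-coding genes between 7272514 and 7568486, a stretch of 295973 bases that also holds Mmp1b, with 0 UMIs, and Mmp10, with 0, 8 and 3 UMIs in WT_Ctrl, WT_UV and RP_UV. The 110 bases upstream of 4 start sites are shown because the results turn on these genes. They are RefSeq sequences on the gene's strand, 5′ to 3′, at chr9:7272404-7272513 for Mmp13, chr9:7347264-7347373 for 1 of 2 listed starts of Mmp12, chr9:7445712-7445821 for Mmp3 and chrX:20870056-20870165 for Timp1, all on the plus strand. Capitals mark matches to TGANTCA (the AP-1 motif, which reads the same on both strands), AGGAAG (the PEA3 motif of ETS factors, searched on both strands) and TATAAA (the TATA box, searched on the gene's strand).

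Mmp13: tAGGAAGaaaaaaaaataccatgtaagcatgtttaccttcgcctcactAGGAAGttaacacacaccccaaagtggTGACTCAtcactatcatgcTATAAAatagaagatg
Mmp12: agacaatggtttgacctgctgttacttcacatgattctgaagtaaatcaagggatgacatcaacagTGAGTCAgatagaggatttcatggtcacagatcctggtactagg
Mmp3: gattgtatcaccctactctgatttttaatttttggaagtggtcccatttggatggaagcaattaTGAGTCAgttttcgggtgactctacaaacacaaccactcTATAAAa
Timp1: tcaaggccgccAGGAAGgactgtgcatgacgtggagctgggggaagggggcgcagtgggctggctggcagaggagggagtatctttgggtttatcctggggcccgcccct

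Within 250 bases upstream, TGANTCA was present in 3 of 8 entries that cover 7 members, namely those of Mmp13, the start of Mmp12 that is shown and Mmp3, and in 6.75% of all 32851 promoters. In these 3 entries it began 35, 44 and 46 bases before the start site. The entry for the other start of Mmp12, at 7344397, where the gene itself begins, had no match to this motif. AGGAAG was present in 6 of the 8 entries and in 29.5% of all promoters, and TATAAA in those of Mmp13 and Mmp3 and in 7.59% of all promoters. A match describes the letters and not a bound site. Mmp2, Mmp9 and Mmp19 had no entry and are named only.

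With 1 library in each group there was no replicate against which a difference could be tested, and neither standard errors nor p-values are given. All intervals are 95% intervals that cover counting error only: exact Poisson for CPM, exact conditional binomial for folds and exact binomial for shares. Where 3 levels, counts or shares stand side by side, they belong to WT_Ctrl, WT_UV and RP_UV in that order. The filters kept 5309, 5225 and 6070 cells, with a median of 4246, 10557 and 3774 UMIs per cell. Any pair of libraries shared 8 to 11 barcodes. Per the labels, 1 flow cell carried both WT_Ctrl and RP_UV while WT_UV was sequenced on another, so any difference between WT_UV and the other libraries cannot be told apart from a difference between runs. RP_UV against WT_Ctrl is given as well, but it differs in both UVB and genotype. Ptgs2, the targeted gene, was at 14.4, 117 and 486 CPM, the order that the labels call for, although the share of rat Ptgs2 reads that the mouse gene took up is not known.

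Cell classes were rebuilt from marker genes, with limits set after the clusters had been seen, and each class name is to be read as "like" that cell type. Immune classes held 57.6%, 73.9% and 53.2% of cells despite the CD45 enrichment, non-immune classes held 33.5%, 10.7% and 38.0%, and 8.95%, 15.3% and 8.76% stayed unnamed. Doublets were not removed. WT_UV held only 5 fibroblasts and 4 endothelial cells, against 342 and 99 in WT_Ctrl and 382 and 342 in RP_UV. Neutrophils numbered 11, 55 and 559.

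Over whole libraries the members did not move as 1 group. Fibroblast-borne Mmp2 and Mmp3 were far lower in WT_UV than in the other libraries, Mmp12 and Mmp13 were highest in WT_UV, and Mmp8, Mmp19 and Timp1 were highest in RP_UV. Mmp2 was at 47.6 CPM in WT_Ctrl, 2.26 in WT_UV and 42.3 in RP_UV. Mmp3 was at 29.0, 3.41 and 25.0 CPM. Both were thus low in WT_UV alone, the library with almost no fibroblasts. Mmp12 was at 28.5, 120 and 52.5 CPM, and Mmp13 at 1.20, 12.7 and 2.23 CPM. Mmp8 was at 0.31, 3.84 and 6.73 CPM. These 3 genes were lowest in unirradiated skin, and Mmp8 rested on 8 UMIs there. Mmp19 was at 8.92, 22.9 and 42.4 CPM, and Timp1 at 2.98, 18.6 and 63.4 CPM. Mmp9, Mmp14 and Timp2 varied least: Mmp9 was at 35.9, 32.0 and 47.6 CPM, Mmp14 at 57.6, 37.9 and 51.8 CPM, and Timp2 at 529, 549 and 760 CPM. In sums over a library, fewer cells of a type and less RNA per cell cannot be told apart.

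**Figure D1:**
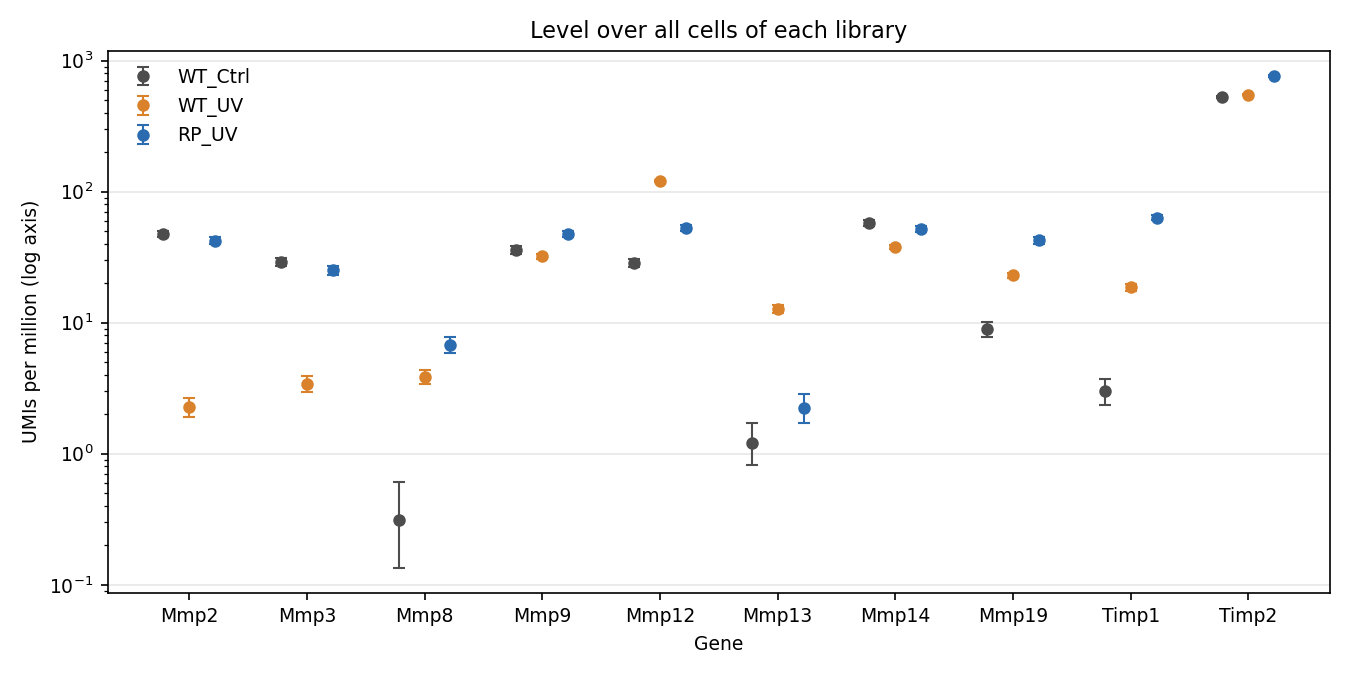
Level of each of the 10 genes over all kept cells of each library, in CPM on a log axis, with 95% Poisson intervals for counting error and 1 library per group. Mmp2 and Mmp3 sit lowest in WT_UV, Mmp12 and Mmp13 highest in WT_UV, and Timp1 is lowest in WT_Ctrl at 2.98 and highest in RP_UV at 63.4.

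By a rule of size, a gene was called different where CPM + 1 differed by at least 2-fold, with at least 10 UMIs in both libraries together. Between WT_UV and WT_Ctrl, 5 of 10 members were called higher (Mmp8, Mmp12, Mmp13, Mmp19, Timp1) and 2 lower (Mmp2, Mmp3), where 2.03% of all 17174 genes were called higher and 9.16% lower. Timp1 was 6.22-fold higher (4.94 to 7.94), Mmp13 10.6-fold higher (7.42 to 15.7), and Mmp2 21.0-fold lower (17.7 to 25.1). Between RP_UV and WT_UV, 3 members were called higher (Mmp2, Mmp3, Timp1) and 2 lower (Mmp12, Mmp13), where 10.1% of all genes were called higher and 4.06% lower. Mmp2 was 18.7-fold higher (15.8 to 22.4), Timp1 3.41-fold higher (3.17 to 3.67) and Mmp13 5.71-fold lower (4.43 to 7.47). Between RP_UV and WT_Ctrl, which shared a flow cell, 3 members were called higher and none lower, where 4.32% of all genes were called higher and 4.27% lower. These were Mmp8, 21.7-fold higher (10.8 to 51.0), Mmp19, 4.76-fold higher (4.13 to 5.50), and Timp1, 21.2-fold higher (16.9 to 27.0). The median log2 fold of the members was 0.66, 0.62 and 0.54 in the 3 comparisons, against -0.033, 0.051 and -0.00060 over all genes tested.

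The members divided by the classes that held their UMIs. Fibroblasts held 90.8% of the Mmp2 UMIs and 95.9% of the Mmp3 UMIs of WT_Ctrl, and 83.6% and 91.1% of those of RP_UV. In WT_UV, keratinocytes held 63.7% of the few Mmp2 UMIs and 85.9% of the few Mmp3 UMIs. Macrophages or monocytes held 74.9%, 74.0% and 23.7% of the Mmp9 UMIs, while neutrophils held 55.3% of them in RP_UV. Most Mmp13 UMIs lay in macrophages in every library, at 100%, 93.1% and 81.5%. For Mmp12, dendritic cells held 50.3%, 46.5% and 20.2%, macrophages 33.4%, 22.4% and 65.4%, and unnamed clusters 15.9%, 30.7% and 13.1%. Fibroblasts held 69.9% of the Mmp14 UMIs of WT_Ctrl and 44.8% of those of RP_UV, whereas macrophages held 60.8% in WT_UV. Timp1 was divided between fibroblasts, at 44.2% in WT_Ctrl and 40.3% in RP_UV, and macrophages, at 33.8%, 59.0% and 36.2%.

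**Figure D2:**
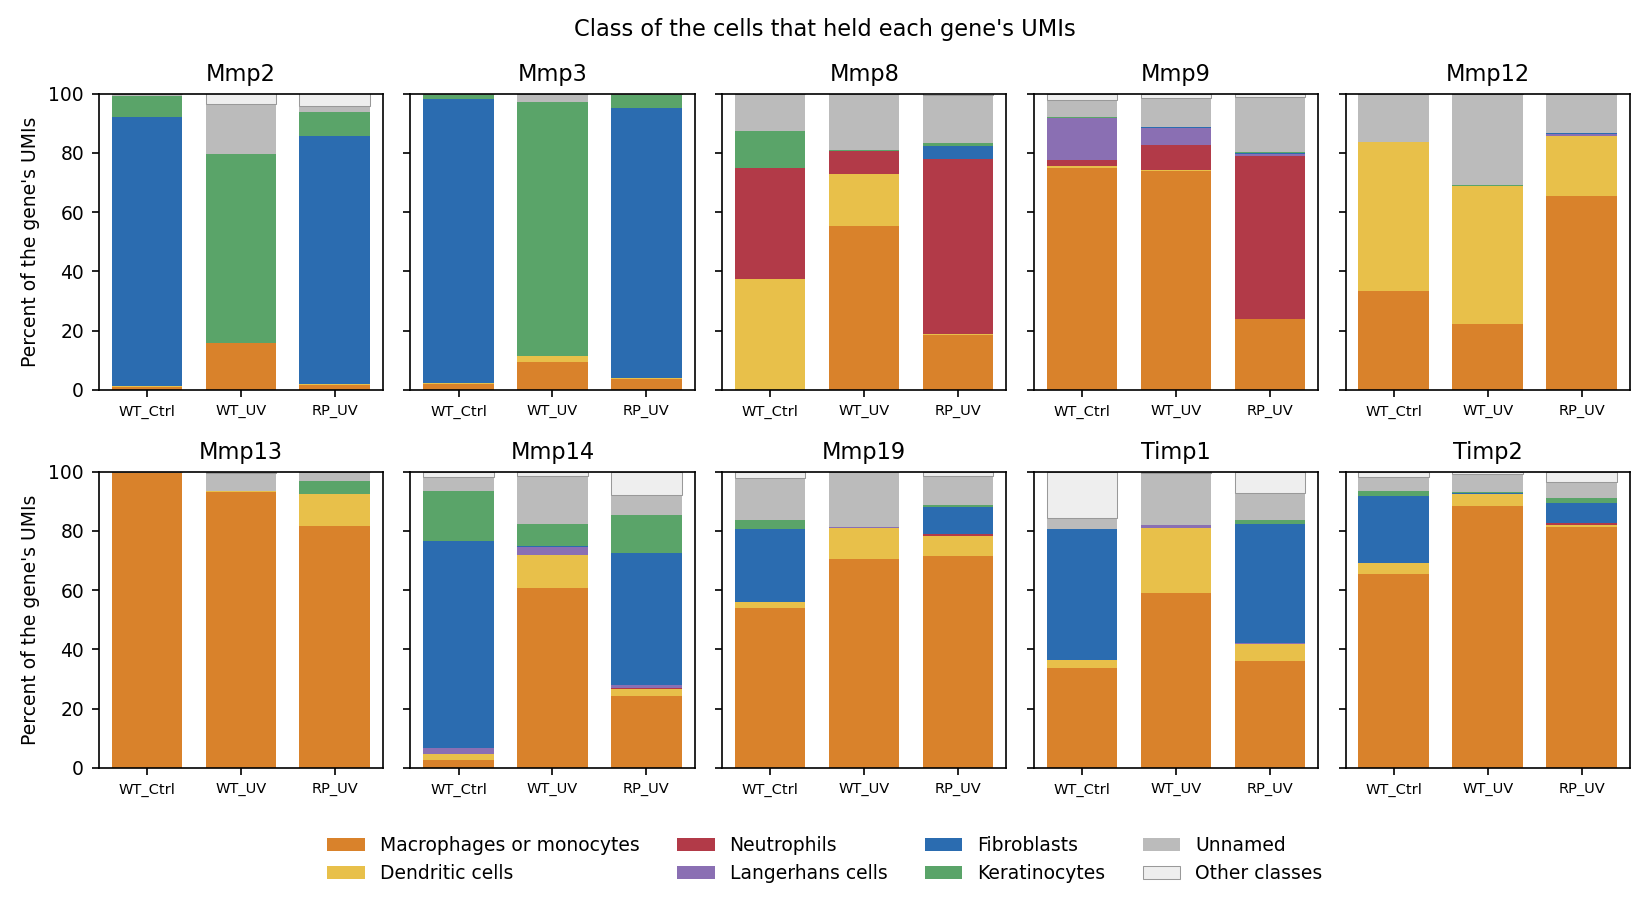
Share of the UMIs of each gene by class of cells in each library, in percent, as stacked bars. Fibroblasts fill the Mmp2 and Mmp3 bars of WT_Ctrl and RP_UV but not of WT_UV, macrophages fill most of every Mmp13 bar, and neutrophils hold 55.3% of Mmp9 in RP_UV.

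**Figure D3:**
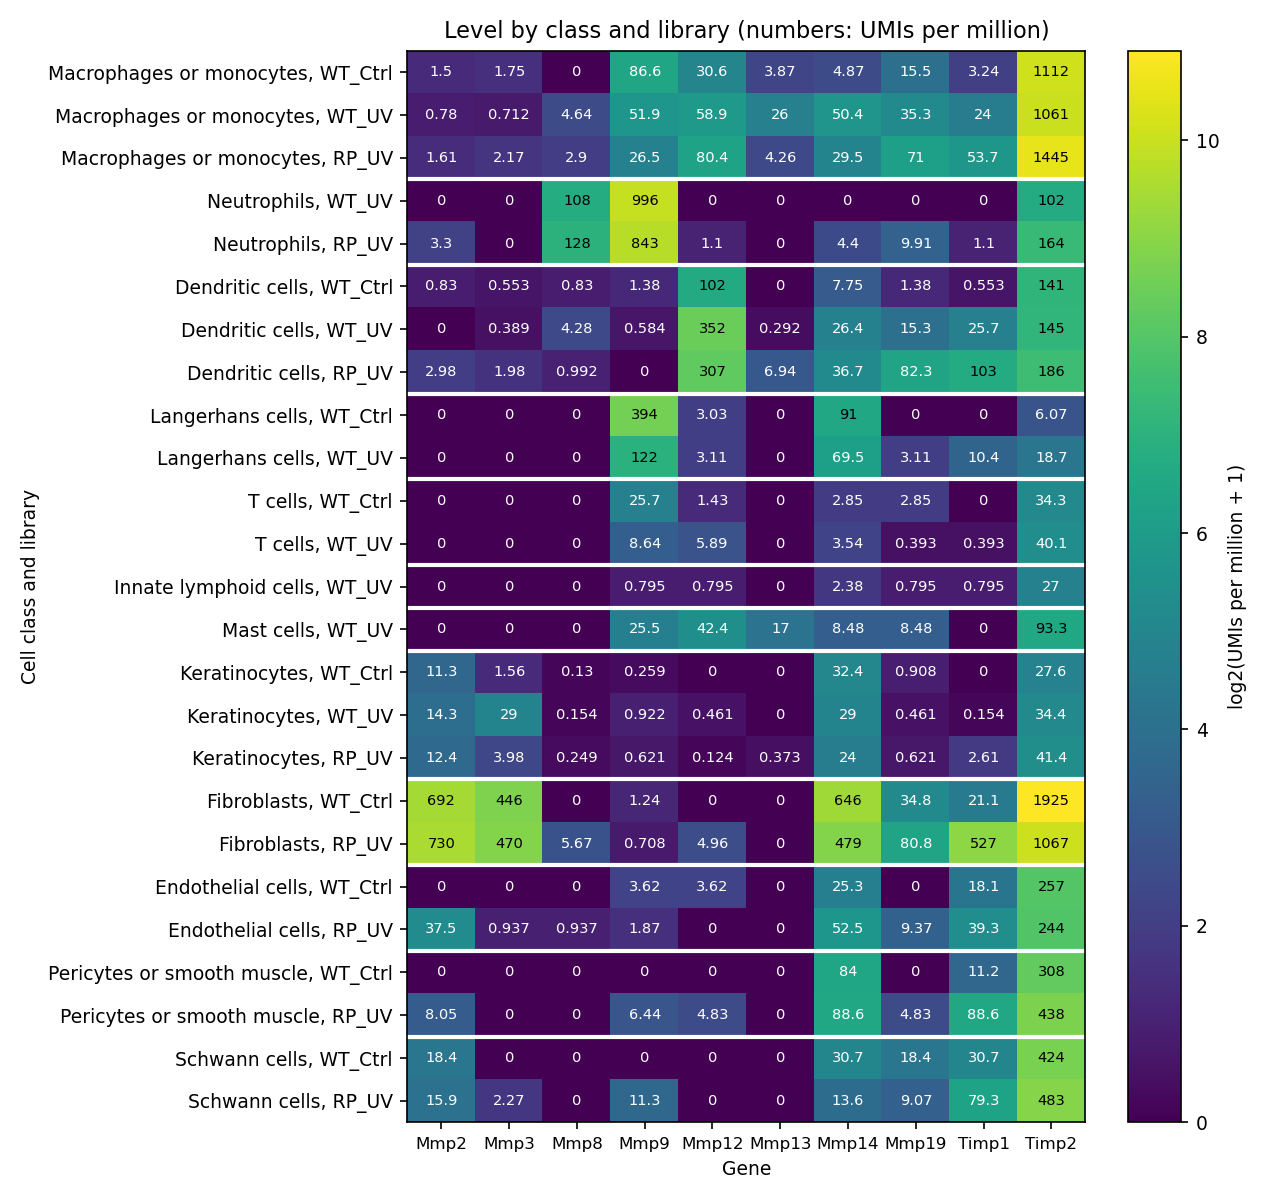
Level of each gene in each class and library with at least 50 cells, coloured by log2(CPM + 1), with the CPM printed in the cell. Mmp2 and Mmp3 are highest in fibroblasts, Mmp8 and Mmp9 in neutrophils, Mmp12 in dendritic cells, and Timp2 reaches 1112, 1061 and 1445 CPM in macrophages.

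Gelatinases. Mmp9, a gelatinase stored in neutrophil granules and also made by macrophages and Langerhans cells, was at 996 CPM in the neutrophils of WT_UV (175 UMIs) and at 843 CPM in those of RP_UV (766 UMIs). The difference was 1.18-fold (0.996 to 1.39), within counting error, while the numbers of neutrophils were 55 and 559. In macrophages Mmp9 was at 86.6 CPM in WT_Ctrl, 51.9 in WT_UV and 26.5 in RP_UV. It was lowest in RP_UV there, 3.27-fold under WT_Ctrl (2.87 to 3.74) and 1.96-fold under WT_UV (1.74 to 2.21), and 1.67-fold lower in WT_UV than in WT_Ctrl (1.52 to 1.83). The last difference was not seen within 2 of the clusters that both libraries filled. Cluster 1.0 was at 185 CPM in WT_Ctrl and 218 CPM in WT_UV, and cluster 2.2 at 80.7 and 112 CPM. It was seen within cluster 0.0, at 86.3 CPM in WT_Ctrl (24 UMIs) and 40.2 CPM in WT_UV (369 UMIs). Cluster 8.0 had 0 UMIs of Mmp9 in both. In Langerhans cells, the antigen-presenting cells of the epidermis, Mmp9 was at 394 CPM in WT_Ctrl and 122 CPM in WT_UV, 3.22-fold lower (2.49 to 4.17). Different clusters held these cells, a pair of clusters with 42 and 22 of 69 cells in WT_Ctrl but another cluster with 50 of 68 cells in WT_UV, which had 65 of the 118 UMIs there, at 83.2 CPM. The 25 Langerhans cells of RP_UV held 10 UMIs, at 93.4 CPM. Over the whole library Mmp9 was highest in RP_UV, where its macrophage level was lowest and neutrophils held most of its UMIs.

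Mmp2, the gelatinase of mesenchymal cells, was at 692 CPM in the fibroblasts of WT_Ctrl and 730 CPM in those of RP_UV. Keratinocytes had 11.3, 14.3 and 12.4 CPM, and macrophages 1.5, 0.78 and 1.61 CPM. In no class with at least 50 cells in both libraries was Mmp2 called between WT_UV and WT_Ctrl. In endothelial cells it had 0 UMIs in WT_Ctrl and 40 in RP_UV (37.5 CPM), at least 3.45-fold higher against a floor of 3 counts. Of the 40 UMIs 35 lay in cluster 11.1, which held 138 of 342 endothelial cells of RP_UV but 12 of 99 of WT_Ctrl.

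Stromelysin. Mmp3, which cuts many matrix proteins and activates other metalloproteinases, was at 446 CPM in the fibroblasts of WT_Ctrl and 470 CPM in those of RP_UV. In keratinocytes it was at 1.56 CPM in WT_Ctrl (12 UMIs), 29.0 in WT_UV (189 UMIs) and 3.98 in RP_UV (32 UMIs). Keratinocyte Mmp3 was 18.7-fold higher in WT_UV than in WT_Ctrl (10.4 to 36.8) and 7.30-fold lower in RP_UV than in WT_UV (5.0 to 11). It stood on few cells: 29 of 519 keratinocytes of WT_UV had a UMI of Mmp3, and 1 of them held 80, or 42.3%, of the UMIs. The 5 highest cells held 79.4%, and leaving out 1 cell takes away only part of these. Without the highest cell of each library the log2 fold of WT_UV over WT_Ctrl went from 3.56 to 3.05 and that of RP_UV over WT_UV from -2.59 to -2.17. Fibroblast markers summed to 79.9, 4.92 and 14.5 CPM in the keratinocytes of WT_Ctrl, WT_UV and RP_UV, and their part in the result was not tested.

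Collagenases. Mmp8, the collagenase of neutrophil granules, was at 108 CPM in the neutrophils of WT_UV and 128 CPM in those of RP_UV, a 1.18-fold difference within counting error (0.72 to 2.03). Macrophages of WT_Ctrl had 0 UMIs of Mmp8, those of WT_UV 137 (4.64 CPM) and those of RP_UV 36 (2.90 CPM). Against a floor of 3 counts Mmp8 was at least 12.4-fold higher in WT_UV and at least 7.74-fold higher in RP_UV. Within the class, cluster 8.0 of WT_UV, led by the monocyte genes Chil3, Plac8 and Ly6c2, was at 45.9 CPM. Cluster 8.2 of RP_UV, led by Chil3, Cxcl2 and Spp1, was at 35.7 CPM and held 61.1% of the macrophage UMIs of Mmp8 there. Neutrophil markers summed to 35.7, 56.1 and 149 CPM in macrophages. They were highest in RP_UV, and their part in the result was not tested. Of the 8 markers 6, 6 and 7 had UMIs in macrophages, and 6 were past 2-fold higher in RP_UV than in WT_UV.

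Mmp13, the main interstitial collagenase of the mouse, was highest in the macrophages of WT_UV. It was at 3.87 CPM in the macrophages of WT_Ctrl (31 UMIs), 26.0 in WT_UV (766 UMIs) and 4.26 in RP_UV (53 UMIs). The WT_UV level was 6.71-fold above WT_Ctrl (4.69 to 9.95) and 6.09-fold above RP_UV (4.61 to 8.21). WT_Ctrl and RP_UV did not differ beyond counting error. Cluster 2.0, led by Ms4a7, Mrc1 and C3ar1 and holding 413 cells of WT_UV, was at 76.5 CPM and had 46.9% of the Mmp13 UMIs of WT_UV macrophages. Clusters 0.3 and 8.1 of WT_UV were at 76.1 and 51.3 CPM. Dendritic cells had 0, 3 and 7 UMIs, and the 7 lay in 1 cell.

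Elastase. Mmp12, the macrophage elastase, was highest in dendritic cells when whole classes are set side by side. It was at 102 CPM in the dendritic cells of WT_Ctrl (369 UMIs), 352 in WT_UV (3615 UMIs) and 307 in RP_UV (309 UMIs). Both irradiated libraries lay above WT_Ctrl, WT_UV by 3.45-fold (3.10 to 3.85) and RP_UV by 3.00-fold (2.57 to 3.50), and differed little from each other (1.15-fold). Different clusters held most dendritic cells: 3.0 and 3.2 in WT_Ctrl (229 and 205 cells) but 3.1 and 3.0 in the irradiated libraries (271 and 113 cells of WT_UV, 90 and 61 of RP_UV). Within cluster 3.0 Mmp12 was at 245, 384 and 193 CPM, on 352, 581 and 57 UMIs. Cluster 3.1, with 3 cells in WT_Ctrl, was at 546 CPM in WT_UV and 430 CPM in RP_UV. Inside cluster 3.0 alone RP_UV was thus not above WT_Ctrl, and no interval was computed for that difference.

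In macrophages Mmp12 was at 30.6, 58.9 and 80.4 CPM, but the order rested on few cells. Of 2359 macrophages of RP_UV, 50 had a UMI of Mmp12, and 1 cell held 393 of the 999 UMIs (39.3%). In WT_Ctrl 1 cell held 89 of 245 UMIs (36.3%), and in WT_UV 204 cells had a UMI and the highest cell held 6.91%. Cluster 10.4, which Mmp12 itself led together with Lyz1, Retnla and Ear2, had 4, 29 and 54 cells and 101, 344 and 890 of the macrophage UMIs of Mmp12. In this cluster Mmp12 was at 3337, 641 and 2644 CPM, above the class level of dendritic cells in each library. Without cluster 10.4 the macrophage levels were 18.0 CPM (15.2 to 21.2), 48.1 CPM (45.6 to 50.7) and 9.01 CPM (7.40 to 10.9). Cluster 10.4 was picked because Mmp12 led it, so this order, with RP_UV lowest, depends on that choice. Macrophage clusters 10.0 and 8.3 of WT_UV, at 418 and 163 CPM with 522 and 236 UMIs, stayed in. Cluster 10.4 was examined after the class values had been seen, and Mmp12 had been kept out of the features that made the clusters.

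Mmp14 and Mmp19. Mmp14, the membrane-anchored metalloproteinase that activates Mmp2, was at 4.87 CPM in the macrophages of WT_Ctrl (39 UMIs), 50.4 in WT_UV (1488 UMIs) and 29.5 in RP_UV (367 UMIs). Both irradiated libraries were higher than WT_Ctrl, WT_UV by 10.4-fold (7.55 to 14.6) and RP_UV by 6.07-fold (4.35 to 8.67). The level over the whole library went the other way, 1.52-fold lower in WT_UV than in WT_Ctrl (1.42 to 1.62), where WT_Ctrl held 342 fibroblasts at 646 CPM and WT_UV held 5 fibroblasts. In dendritic cells Mmp14 was at 7.75, 26.4 and 36.7 CPM, 3.40-fold (2.30 to 5.22) and 4.74-fold (2.82 to 8.04) above WT_Ctrl. Keratinocytes had 32.4, 29.0 and 24.0 CPM, all within 2-fold of each other, and Langerhans cells 91.0 CPM in WT_Ctrl and 69.5 CPM in WT_UV. Cluster 2.0 of WT_UV macrophages was at 151 CPM with 47.5% of the UMIs, and cluster 2.1 of RP_UV at 74.6 CPM with 43.6%.

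Mmp19, a soluble metalloproteinase that cuts basement membrane proteins, was graded in macrophages, at 15.5 CPM in WT_Ctrl (124 UMIs), 35.3 in WT_UV (1042 UMIs) and 71.0 in RP_UV (883 UMIs). WT_UV was 2.28-fold above WT_Ctrl (1.89 to 2.77) and RP_UV 2.01-fold above WT_UV (1.84 to 2.20). On the log2(CPM + 1) scale this last difference was 0.99, just under the 2-fold limit. In dendritic cells the levels were 1.38 CPM (5 UMIs), 15.3 and 82.3 CPM in the same order, so that RP_UV was 5.39-fold above WT_UV (4.08 to 7.07). With each cell classed by its own marker UMIs instead, the log2 fold of WT_UV over WT_Ctrl in dendritic cells was 0.070 rather than 2.77. In cluster 3.0 alone the levels were 1.39, 15.9 and 40.5 CPM. In fibroblasts Mmp19 was at 34.8 CPM in WT_Ctrl and 80.8 CPM in RP_UV, 2.32-fold higher (1.67 to 3.26).

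Inhibitors. Timp1, a secreted inhibitor of most of these enzymes, was called higher in RP_UV than in WT_Ctrl in each of the 7 named classes with at least 50 cells in both libraries, by the 2-fold rule given with the counts above. In macrophages it was at 3.24 CPM in WT_Ctrl (26 UMIs), 24.0 in WT_UV (707 UMIs) and 53.7 in RP_UV (668 UMIs). WT_UV was 7.39-fold above WT_Ctrl (5.0 to 11.4) and RP_UV 2.24-fold above WT_UV (2.01 to 2.50). Dendritic cells had 2 UMIs in WT_Ctrl (0.553 CPM), 264 in WT_UV (25.7 CPM) and 104 in RP_UV (103 CPM). The ratio of RP_UV to WT_UV was 4.01 (3.17 to 5.06) and that of WT_UV to WT_Ctrl was 46.4 with a wide interval (12.7 to 385). Keratinocytes had 0, 1 and 21 UMIs, which put RP_UV, at 2.61 CPM, at least 6.71-fold above WT_Ctrl. In fibroblasts Timp1 was at 21.1 CPM in WT_Ctrl (34 UMIs) and 527 CPM in RP_UV (744 UMIs), 25.0-fold higher (17.7 to 36.3). Few cells held most of it: 90 of 382 fibroblasts of RP_UV had a UMI of Timp1. The highest cell held 108 UMIs (14.5%), and the 5 highest cells held 39.9%. Without the highest cell of each library the log2 fold went from 4.58 to 4.53. Pericytes or smooth muscle cells had 11.2 and 88.6 CPM, with only 2 UMIs in WT_Ctrl (7.91-fold, 2.09 to 67.0). Schwann cells had 30.7 and 79.3 CPM (2.58-fold, 1.01 to 8.45), and endothelial cells 18.1 and 39.3 CPM (2.17-fold, 0.862 to 7.04), a difference within counting error.

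Timp2, the inhibitor that also works with Mmp14, stayed within 2-fold between libraries in macrophages, dendritic cells, keratinocytes and fibroblasts. In macrophages it was at 1112, 1061 and 1445 CPM, and in dendritic cells at 141, 145 and 186 CPM. Within macrophages, cluster 0.1 of WT_Ctrl, 0.0 of WT_UV and 0.2 of RP_UV, which share Ccl8, Mrc1 and C1qc among their leading genes, were at 1315, 1698 and 1899 CPM, whereas cluster 2.0 of WT_UV was at 458 CPM. In fibroblasts Timp2 was at 1925 CPM in WT_Ctrl and 1067 CPM in RP_UV, 1.80-fold lower (1.70 to 1.92). Timp1 and Timp2 thus went in opposite directions in the fibroblasts of these libraries. Under median-of-ratios scaling the Timp2 difference passed the 2-fold limit, at a log2 fold of -1.01.

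Fibroblasts were not 1 population, and the members divided them. Clusters 12.0 and 12.1, led by Igfbp3, Crabp1, Slc26a7 and Prlr with no fibroblast marker among their 10 leading genes, held 151 cells of WT_Ctrl and 201 of RP_UV. They had 0 UMIs of Mmp3 in both libraries and 0 and 1 UMI of Timp1, with Mmp2 at 52.5 and 32.0 CPM, Mmp14 at 185 and 128 CPM and Timp2 at 190 and 234 CPM. Clusters 15.0 to 15.6, led by Dcn, Col3a1, Col1a1 and Col1a2, held 177 and 145 cells. In these, Timp1 was at 28.3 CPM in WT_Ctrl and 817 CPM in RP_UV, 28.9-fold higher (20.5 to 42.0), and Mmp19 at 37.4 and 114 CPM, 3.04-fold higher (2.12 to 4.43). Timp2 was at 2469 and 1505 CPM, 1.64-fold lower (1.54 to 1.75). Mmp2 was at 893 and 1084 CPM, 1.21-fold higher (1.11 to 1.33), and Mmp3 at 587 and 740 CPM, 1.26-fold higher (1.13 to 1.40). Cluster 15.2, with 10 cells in WT_Ctrl and 56 in RP_UV, reached 1310 CPM of Timp1 in RP_UV. Cluster 19.2 held 14 and 36 cells, with Timp1 at 0 and 19 UMIs, Mmp2 at 470 and 479 CPM and Mmp3 at 268 and 67.2 CPM, 3.99-fold lower (1.5 to 11.3) where clusters 15.0 to 15.6 had it higher. The 8 fibroblast markers summed to 93328 CPM in the fibroblasts of WT_Ctrl and 29515 CPM in those of RP_UV, and the part of this in the class-wide levels was not tested. Neutrophil markers summed to 32.9 CPM in the fibroblasts of WT_Ctrl and 181 CPM in those of RP_UV, and their part was not tested. Neutrophils of RP_UV had 1 cell with a UMI of Timp1.

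**Figure D4:**
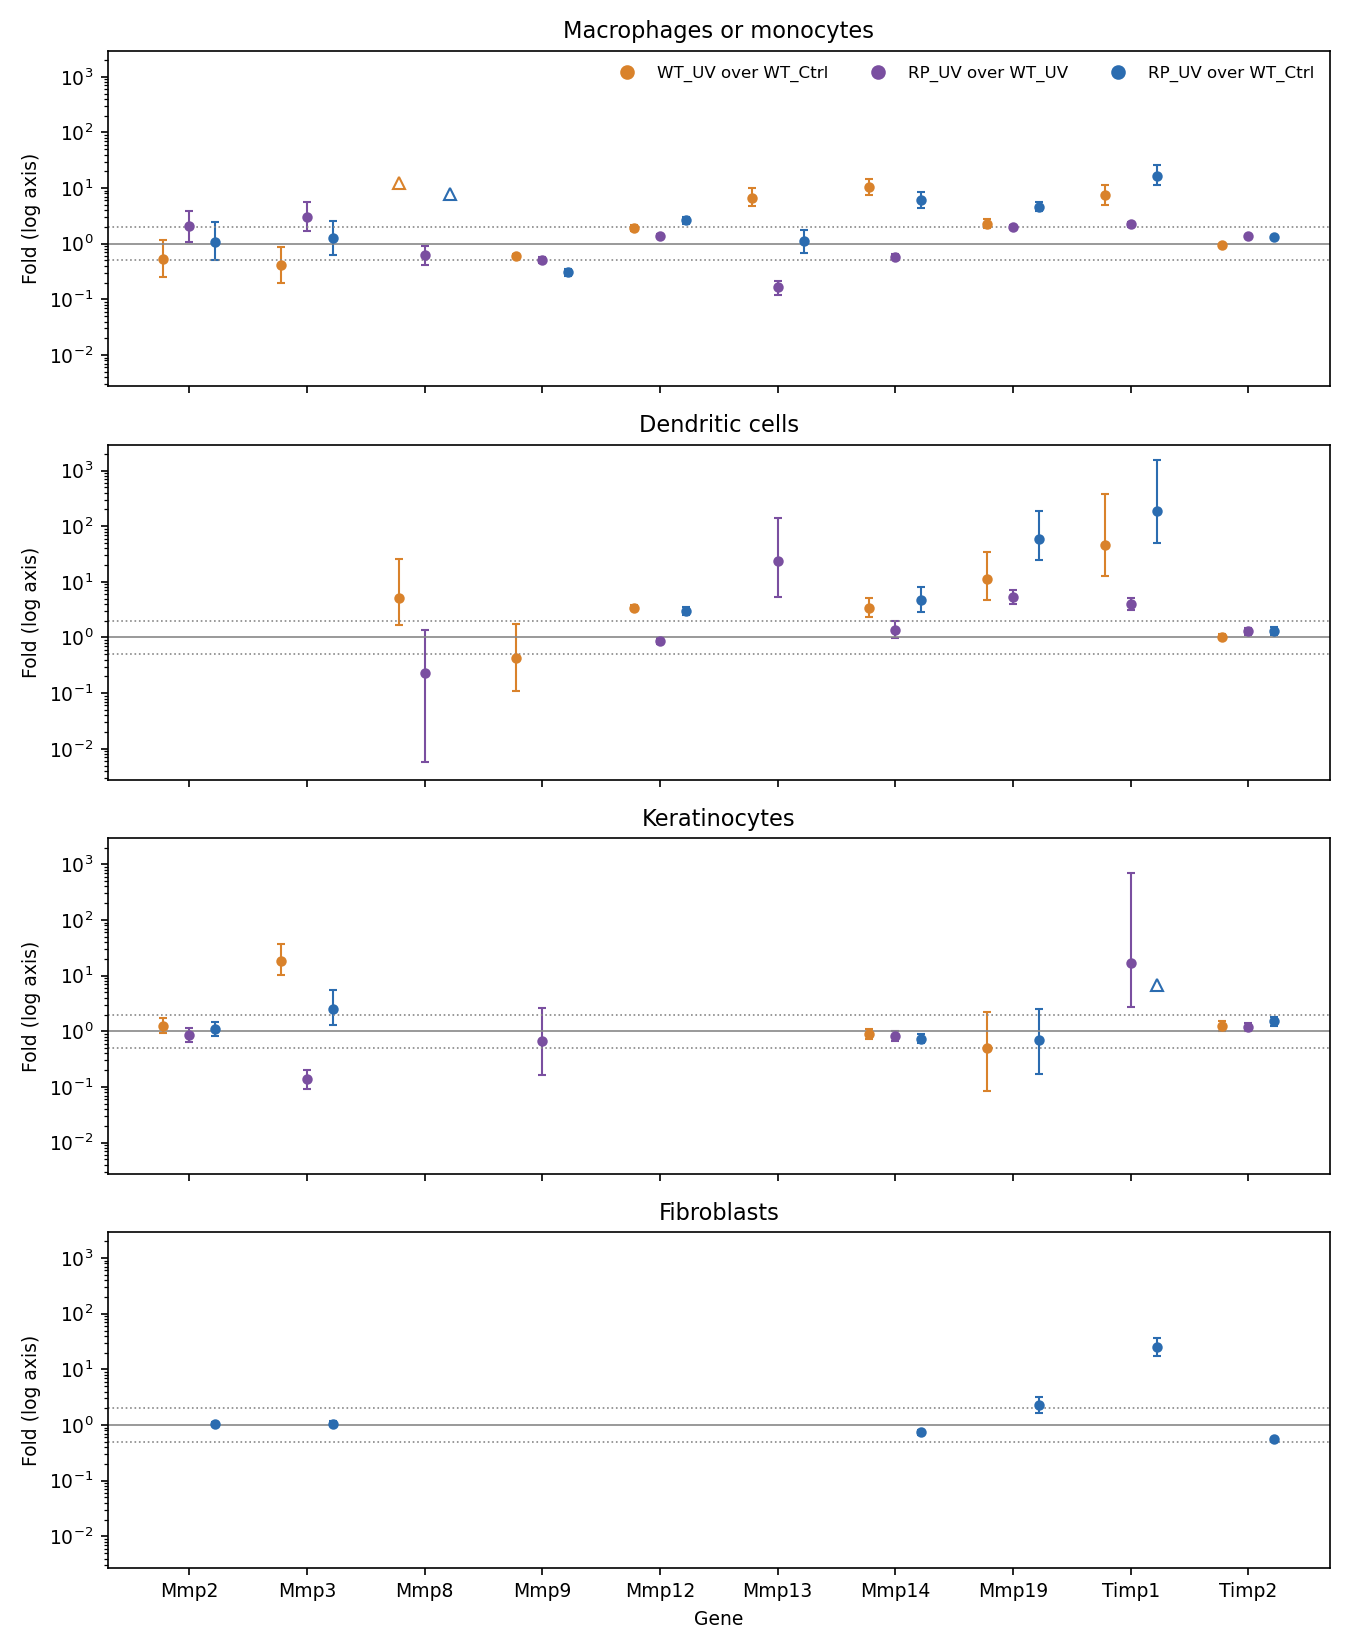
Fold of each member between libraries in macrophages, dendritic cells, keratinocytes and fibroblasts on a log axis, with 95% intervals for counting error, for members with at least 10 UMIs. Dotted lines mark 2-fold, and open triangles are lower bounds against 0 UMIs. Timp1 in fibroblasts lies at 25.0-fold for RP_UV over WT_Ctrl, and Mmp13 in macrophages lies above 2-fold for WT_UV over WT_Ctrl and below it for RP_UV over WT_UV.

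Counted by class, macrophages of WT_UV had 5 of 10 members called higher than in WT_Ctrl (Mmp8, Mmp13, Mmp14, Mmp19, Timp1) and none lower, where 2.81% of 13788 genes were called higher and 1.04% lower. Between RP_UV and WT_UV, macrophages had 1 called higher (Timp1) and 1 lower (Mmp13), with 1.61% of genes called higher and 3.29% lower. Between RP_UV and WT_Ctrl there were 5 higher (Mmp8, Mmp12, Mmp14, Mmp19, Timp1) and 1 lower (Mmp9), with 4.42% called higher and 4.56% lower. The median log2 fold of the members in macrophages was 1.03, 0.44 and 0.87 in these comparisons, against 0.040, -0.057 and 0.0033 over all genes tested. Dendritic cells of WT_UV had 5 of 7 testable members called higher than in WT_Ctrl, with 4.53% of genes called higher and 2.04% lower. Between RP_UV and WT_UV they had 3 of 7 higher and 1 lower, with 3.31% and 9.05% of genes called in these directions. Between RP_UV and WT_Ctrl they had 4 of 5 higher and none lower, with 6.71% and 9.78%. The other 3 to 5 members had fewer than 10 UMIs in dendritic cells.

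In keratinocytes, Mmp3 alone of 5 testable members was called between WT_UV and WT_Ctrl, where 2.76% of genes were called higher and 2.37% lower. Of the called genes 53.8% were higher, against 65.4% under median-of-ratios scaling, 64.4% under TMM scaling and 37.0% for the mean over cells. Between RP_UV and WT_UV, Timp1 was called higher and Mmp3 lower of 6 members, with 5.73% of genes called higher and 3.91% lower. Between RP_UV and WT_Ctrl only Timp1 of 6 was called, higher, with 7.62% and 7.33% of genes called in the 2 directions. In fibroblasts 2 of 6 testable members, Mmp19 and Timp1, were called higher in RP_UV than in WT_Ctrl, where 7.47% of genes were called higher and 5.42% lower and the median log2 fold was 0.077 for the members and 0.12 for all genes. Of the called genes 58.0% were higher in fibroblasts, against 41.3% and 45.9% under median-of-ratios and TMM scaling, which also turned the sign of the small Mmp2 and Mmp3 differences over all fibroblasts. Langerhans cells of WT_UV had 2 of 4 members called higher than in WT_Ctrl (Timp1 with 0 and 10 UMIs, Timp2 with 2 and 18) and Mmp9 lower, with 10.4% of genes called higher and 6.11% lower. T cells had 1 of 4 higher and 1 lower, with 7.4% and 2.13%. Endothelial cells of RP_UV had 4 of 5 higher than in WT_Ctrl, with 10.4% of genes called higher and 8.68% lower. Their UMIs in WT_Ctrl and RP_UV were 0 and 40 (Mmp2), 0 and 10 (Mmp19), 7 and 56 (Mmp14) and 5 and 42 (Timp1). Mmp2 and Mmp19 reached the limit of 10 UMIs through RP_UV alone. Of the genes called in endothelial cells 54.5% were higher, against 66.5% and 68.2% under median-of-ratios and TMM scaling. Pericytes or smooth muscle cells had 1 of 3 higher, with 11.1% of genes called higher and 11.4% lower, and Schwann cells 1 of 4 higher and 1 lower, with 9.46% and 7.5%. Neutrophils had none of 3 testable members called between RP_UV and WT_UV, where 16.1% of genes were called higher and 9.8% lower. Of those 62.1% were higher, against 74.1% and 76.7% under the other scalings.

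**Figure D5:**
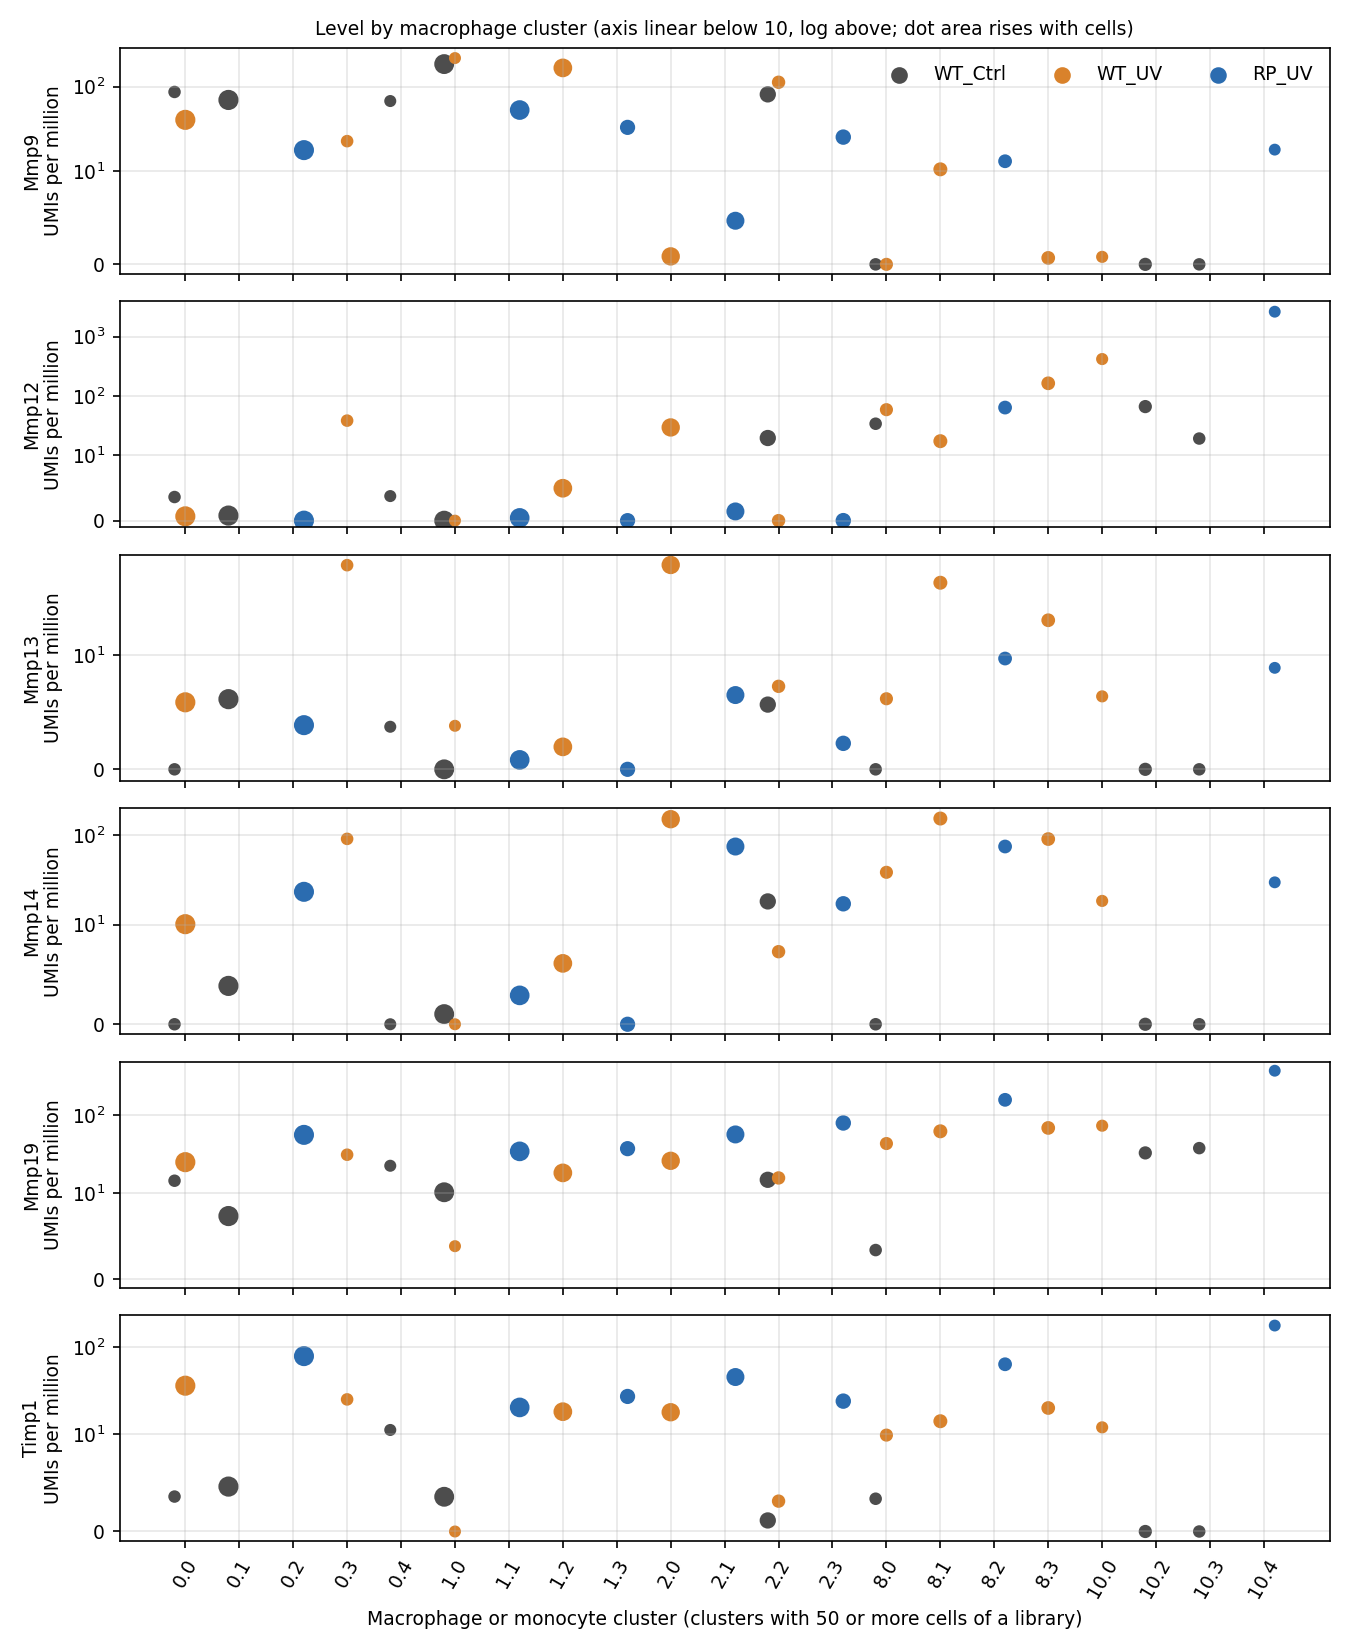
Level of 6 members in macrophage clusters with at least 50 cells of a library, in CPM on an axis that is linear below 10 and logarithmic above, where dot area rises with the number of cells. Mmp13 is high in clusters of WT_UV (76.5 CPM in 2.0), Mmp9 stands highest in cluster 1.0, at 218 in WT_UV and 185 in WT_Ctrl, and Timp1 is highest in RP_UV.

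Macrophages of the 3 libraries filled different clusters, so a class level mixes clusters in different parts. Most of them lay in clusters 0.1, 1.0 and 2.2 of WT_Ctrl (631, 590 and 240 cells), in 0.0, 1.2 and 2.0 of WT_UV (624, 450 and 413 cells) or in 0.2, 1.1 and 2.1 of RP_UV (614, 564 and 378 cells). Mmp9 was high in clusters with Folr2, Ednrb and F13a1 among their leading genes: 1.0 of WT_Ctrl was at 185 CPM with 52.2% of the Mmp9 UMIs of macrophages, 1.2 of WT_UV at 167 CPM with 55.2%, and 1.1 of RP_UV at 52.6 CPM with 38.6%. Timp1 in the clusters led by Ccl8 (0.1, 0.0 and 0.2) was at 4.62, 36.0 and 78.4 CPM. Mmp19 in the same clusters was at 7.32, 25.0 and 56.1 CPM, the same order as in the whole class. Mmp19 reached 159 CPM in cluster 8.2 and 377 CPM in cluster 10.4 of RP_UV. Mmp14 was at 151 and 153 CPM in 2.0 and 8.1 of WT_UV and at 74.6 CPM in both 2.1 and 8.2 of RP_UV, clusters with fewer than 50 cells of WT_Ctrl.

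Macrophage clusters 0.0, 1.0, 2.2 and 8.0 held at least 50 cells of both WT_Ctrl and WT_UV and could be set side by side, on few UMIs. In these 4 clusters, in this order, Mmp14 was at 0, 1.02, 18.2 and 0 CPM in WT_Ctrl and at 10.1, 0, 7.29 and 38.4 CPM in WT_UV. It was thus higher in WT_UV in 0.0 and 8.0 but not in 1.0 and 2.2. Timp1 was at 3.59, 3.57, 1.14 and 3.37 CPM in WT_Ctrl, from 1 to 7 UMIs each, and at 36.0, 0, 3.12 and 9.92 CPM in WT_UV. Mmp19 was at 14.4, 10.2, 14.8 and 3.37 CPM in WT_Ctrl and at 25.0, 3.82, 15.6 and 43.4 CPM in WT_UV. The higher class levels of Mmp14, Timp1 and Mmp19 in WT_UV were therefore not seen in every cluster. Mmp13 was at 0, 0, 5.69 and 0 CPM in WT_Ctrl and at 5.89, 3.82, 7.29 and 6.20 CPM in WT_UV. The WT_UV values of Mmp13 were thus all under its class level there of 26.0 CPM, and cluster 2.2 had 5 and 7 UMIs.

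The share of cells with a UMI was read after each cell had been thinned to 1000 UMIs, since WT_UV cells were deeper. In macrophages, with median depths of 3846.5, 11090 and 4667 UMIs, 0.310%, 1.60% and 4.03% of cells had a UMI of Timp1 (1.19%, 13.6% and 15.2% unthinned). For Mmp13 the shares were 0.413%, 1.98% and 0.263%, and for Mmp14 0.465%, 4.39% and 2.28%. For Mmp19 they were 1.34%, 2.57% and 5.04%, and for Mmp9 7.75%, 6.16% and 3.64%. T cells, which should lack these genes, had a median depth of 2254 UMIs in WT_Ctrl and 5100 in WT_UV. Their thinned shares were 0 of 280 and 0 of 441 cells for Mmp13, Mmp19 and Timp1, which allows shares of up to 1.07% and 0.680%, then 0.357% and 0.227% for Mmp14, and 1.79% and 0.680% for Mmp9. In WT_Ctrl the macrophage shares of Timp1, Mmp13 and Mmp14 were no higher than T cells allow or near their value, so that these few cells give no difference from T cells, whereas in WT_UV the shares of all 5 genes lay above those of T cells. Keratinocytes of WT_Ctrl, with more UMIs in all than T cells, had 0 UMIs of Mmp13 and of Timp1 (up to 0.478 CPM each), under the 3.87 and 3.24 CPM of macrophages. RP_UV had too few T cells for such a share. Its keratinocytes, with a median of 5996 UMIs, had a UMI of Timp1 in 0.296% of cells and of Mmp13 and Mmp19 in 0 of 1013, where the same floor allows up to 0.296%. By level, Mmp13 was at 0.373 CPM in these keratinocytes (3 UMIs) against 4.26 CPM in macrophages. Mmp14 was in 2.57% of keratinocytes there, which express it in every library.

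In dendritic cells 8.06%, 20.1% and 18.2% of thinned cells had a UMI of Mmp12 (22.5%, 56.6% and 46.8% unthinned, at median depths of 6000, 17551 and 5536 UMIs), against 0.357% and 0.227% of T cells in WT_Ctrl and WT_UV. For Timp1 these shares were 0 of 583 cells, which allows up to 0.515%, then 3.70% and 12.7%. In neutrophils 56.4% of cells in WT_UV and 53.0% in RP_UV had a UMI of Mmp9, and in Langerhans cells 40.6% in WT_Ctrl and 17.6% in WT_UV. In fibroblasts 30.5% and 29.4% of cells in WT_Ctrl and RP_UV had a UMI of Mmp2, and 0.880% and 12.3% one of Timp1 (7.89% and 23.6% unthinned). Keratinocytes had a UMI of Mmp3 in 0.0876%, 1.95% and 0.691% of cells, against 0 of 280 and 0 of 441 T cells in WT_Ctrl and WT_UV.

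RNA of other cells and signs of dissociation stress also differed between libraries, and their part in the results was not tested. Over whole libraries, neutrophil markers summed to 61.4, 198 and 1940 CPM and fibroblast markers to 5980, 50.9 and 1597 CPM. In macrophages, fibroblast markers summed to 155, 68.5 and 59.4 CPM, keratinocyte markers to 178, 159 and 222 CPM, and stress genes to 4017, 6266 and 6429 CPM. Timp1, Mmp14 and Mmp19, which fibroblasts also express, were lowest in the macrophages of WT_Ctrl. In the fibroblasts of WT_Ctrl and RP_UV, Timp1 was at 21.1 and 527 CPM, Mmp14 at 646 and 479 CPM and Mmp19 at 34.8 and 80.8 CPM. In dendritic cells fibroblast markers summed to 50.9, 12.6 and 72.4 CPM and neutrophil markers to 6.64, 22 and 19.8 CPM. In the fibroblasts of WT_Ctrl and RP_UV, stress genes summed to 5691 and 8918 CPM.

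Among 48 related genes (other metalloproteinases and inhibitors, ADAM and ADAMTS proteases, the plasminogen system, partners, cathepsins and matrix substrates), 34 were testable in macrophages between WT_UV and WT_Ctrl. Of these 3 were called higher and 6 lower, where 2.81% of all genes were called higher and 1.04% lower. Higher were Plau, the urokinase that activates plasminogen, at 22.3 and 62.2 CPM in WT_Ctrl and WT_UV, its receptor Plaur at 23.5 and 61.7 CPM, and Cd44, a hyaluronan receptor that docks Mmp9, at 130 and 317 CPM. Lower were Timp3 (16 and 13 UMIs), Adamts1 (10 and 2 UMIs), the collagen genes Col1a1, Col1a2 and Col3a1, and Fn1, which encodes fibronectin, at 301 and 149 CPM. These 3 collagen genes are among the fibroblast markers, which summed to 155 and 68.5 CPM in macrophages. WT_Ctrl held 342 fibroblasts and WT_UV 5, and the part of fibroblast RNA in the lower levels was not tested. Between RP_UV and WT_UV, 6 of 36 were higher and 2 lower, where 1.61% of all genes were called higher and 3.29% lower. The related genes called included the cathepsin gene Ctsl, at 718 CPM in WT_UV and 1544 in RP_UV, and Mmp25, a metalloproteinase of leukocytes, at 4.85 and 0.724 CPM. In the fibroblasts of RP_UV against WT_Ctrl, 8 of 36 were higher and 6 lower, with 7.47% and 5.42% of all genes. The higher ones included the aggrecanase Adamts4, at 6.21 CPM in WT_Ctrl and 43.9 in RP_UV, and Mmp11, at 10.6 and 36.8 CPM. The lower ones included the matrix genes Col1a1, at 27552 and 5496 CPM, Col3a1, at 18204 and 7479 CPM, and Eln, which encodes elastin, at 454 and 143 CPM. These are sums over all fibroblast clusters, whose parts differed between the libraries.

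The pattern of each member over 29 pairs of a class and a library was set beside those of other genes by Pearson correlation of log2(CPM + 1), as a description, since the pairs share libraries and depth. Mmp2 was most like Efemp1 (r = 0.91), Thbs2 (0.88) and Tnc (0.88), and Mmp3 like Wif1 (0.89), Dpep1 (0.88) and Scara5 (0.88). Mmp2 and Mmp3 had an r of 0.78 with each other. Mmp8 was most like Gm5150, Cd300lf and Retnlg (0.92 each), and Mmp9 like P2ry13 (0.86), Themis2 (0.80) and Tut7 (0.80). Mmp12 was most like Cd209c (0.92), Tnip3 (0.89) and Tep1 (0.87). Mmp13 was closest to Ms4a14 (0.80), Mmp14 to Cul7 (0.87), Mmp19 to Vcan (0.84), Timp1 to Tppp3 (0.78) and Timp2 to Colec12 (0.89).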

How the data were processed

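Cells of CD45+ enriched dorsal skin were profiled by droplet-based 3′ RNA sequencing in 3 libraries, 1 per group as the labels give them. The deposited values are raw UMI counts for each gene in each cell, to which no normalization had been applied, and the submitters' processing notes name Cell Ranger and mm10. The members and lists were chosen with earlier results of these data known.

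Cells with under 10% mitochondrial UMIs, over 200 genes and under 4000 genes (6000 in WT_UV, as in the methods of the study) were kept. SCTransform (sctransform 0.4.2) and Seurat 5.3.0 in R 4.3.3 integrated the libraries on 3000 features and 30 dimensions, without the members and related genes (55 features), into 29 clusters at a resolution of 0.8. Clusters of at least 100 cells were split with leidenalg 0.10.2 in scanpy 1.11.5 (resolution 0.5) into 141, of which 103 were named from fixed markers and 38 were not. A name needed a score of at least 1 and a lead of 0.5 over the next panel (1 with no own marker among the 10 leading genes). Deep clusters with markers of another lineage stayed unnamed.

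UMIs were summed per library and class and scaled to CPM (Python 3.11.15, numpy 2.4.6, scipy 1.17.1, pandas 2.3.3, matplotlib 3.10.9). With counts from 1 library per group no count model was run. Folds were taken on log2(CPM + 1) for genes with at least 10 UMIs in both libraries together and classes with at least 50 cells in each. Every member was named, related genes were named where past 2-fold or beside a member, and the 3 genes nearest to a member by correlation were computed. TMM factors came from edgeR 4.0.16. Folds and intervals were tested on simulated data. Levels of different genes were not compared. The share of each class depends on sorting and dissociation, and a deeper library detects more of the low genes.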

Additional observations from a re-analysis of the deposited data

Results flagged for a closer look

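The cells that the filters removed entered only the setting with all deposited barcodes, and several members were above the WT_Ctrl level in them. The removed sets are not alike, since the upper gene limit was 6000 in WT_UV and 4000 in the other libraries. Mmp12 was at 95.2 CPM in the removed barcodes of WT_UV and 21.3 CPM in those of RP_UV, against 5.44 CPM in WT_Ctrl. Mmp3 was at 9.85 CPM in WT_UV, against 2.29 CPM, and Mmp13 at 3.30 CPM in WT_UV, against 0.218 CPM. Mmp19 was at 11.5 CPM in WT_UV and 16.9 CPM in RP_UV, against 1.52 CPM. Timp1 was at 7.98 CPM in WT_UV and 16.9 CPM in RP_UV, with 0 UMIs in WT_Ctrl. Timp2 was at 167 CPM in WT_UV and 183 CPM in RP_UV, against 43.4 CPM in WT_Ctrl. The classes of these barcodes were not determined.

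Mmp13 differed between RP_UV and WT_UV in opposite directions in 2 classes, with a log2 fold of -2.36 in macrophages and 2.62 in dendritic cells. The difference between the classes was not tested. The dendritic value stood on 3 UMIs in WT_UV and 7 in RP_UV, all 7 in 1 cell.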

How the results depend on the processing

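No paired analysis was possible because each group has 1 library. Of 114 member folds, 54 were past 2-fold. There were 16 other settings listed in advance and 2 chosen after the data were seen. The thinning depths bear on shares of cells only, and the other UMI minimums and the 1.5-fold limit on counts of members only. The remaining settings gave 602 values of the 54 folds, of which 599 kept their sign and 572 stayed past 2-fold. With a pseudocount of 10 CPM, 37 of 54 stayed past 2-fold. In all settings run on folds, 33 folds stayed past 2-fold. The 3 that turned were Timp2 in Langerhans cells, WT_UV over WT_Ctrl (log2 fold 1.48, and -0.022 with each cell classed by its own marker UMIs), Mmp13 in dendritic cells, RP_UV over WT_UV (2.62, and -0.26 without the cell with the most UMIs, the source of the change), and Mmp12 in macrophages, RP_UV over WT_Ctrl (1.37, and -0.93 without cluster 10.4). Mmp12 in macrophages, RP_UV over WT_UV, went from 0.44 to -2.29 without that cluster, which had been picked because Mmp12 led it. Mmp19 in dendritic cells, WT_UV over WT_Ctrl, went from 2.77 to 0.070 with classes from marker UMIs, and the cause was not tested. The count of members called in macrophages between WT_UV and WT_Ctrl was 5, and 3 with a pseudocount of 10 CPM and 8 at 1.5-fold. Between RP_UV and WT_UV it was 2, and 4 with classes from marker UMIs, 5 with a gene limit of 4000 in every library, 5 for the mean over cells, 4 and 1 with pseudocounts of 0.1 and 10 CPM, and 6 at 1.5-fold. Of 190 shares of cells, 123 moved when cells were thinned to 500 or 2000 UMIs, which sets how many cells can show a UMI. Scaling moved the median of all genes by over 0.1 (log2) in keratinocytes of WT_UV over WT_Ctrl (0.11), neutrophils of RP_UV over WT_UV (0.16 and 0.20), dendritic cells (-0.11), fibroblasts (-0.16 and -0.12) and endothelial cells (0.14 and 0.15) of RP_UV over WT_Ctrl. The lower depth of WT_Ctrl and RP_UV limits members with few UMIs.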
